A study of Mus musculus with 9 samples.

Results

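Brain transcriptomes of baclofen-treated diabetic mice (BAC) were compared with those of normal control mice (CON), to describe what still differed from control after treatment. The comparison rests on the 3 BAC and the 3 CON libraries, 6 of the 9 libraries of the series, and covers the 18501 of 53465 listed genes that passed a filter on low counts. Members were taken from the sample labels and the count table, without regard to measured values. The other 3 libraries came from untreated diabetic mice with neuropathic pain (DNP), whose levels are given beside those of BAC and CON.

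All were male C57BL/6 mice aged 7 weeks on arrival. The DNP and BAC groups shared a diet with 60% fat for 4 weeks, followed by streptozotocin (50 mg/kg i.p. on 7 successive days), which kills insulin-producing cells. BAC mice then received baclofen i.p. at 8 mg/kg daily for 7 days, whereas CON and DNP mice received saline. CON mice were a separate group of normal mice, given neither the fat diet nor streptozotocin. Pain was tested 4 weeks after streptozotocin, and only hyperglycaemic animals with lowered pain thresholds entered the DNP and BAC groups. BAC and CON therefore differed in diet, toxin, glycaemia, selection and drug at once, and the parts of these factors cannot be told apart. Each library was made from poly(A) RNA of the brain of 1 mouse, without strand information, and in such bulk RNA fewer cells of a type and less RNA per cell cannot be told apart.

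Baclofen is an agonist of the GABA-B receptor, a heterodimer of the products of Gabbr1 and Gabbr2 that couples to inhibitory G proteins. Before the synapse the receptor lowers calcium entry and transmitter release, and after it the receptor opens potassium channels of the Kcnj3, Kcnj6 and Kcnj9 family. Diabetes is known to act on the brain through glucose, insulin and vessels, and on blood cells and glia, and the gene lists below were set up around those themes.

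Levels of brain-region markers differed between libraries of the same group, although all were labelled whole brain. Of 23 markers of cerebellar granule and Purkinje neurons, the mean log2 deviation from the 9-library average was 2.26, -2.07 and 1.09 in BAC 1, 2 and 3, against -1.35, 3.26 and 0.99 in CON 1, 2 and 3. Gabra6, a GABA-A subunit of cerebellar granule cells, stood at 204 CPM (counts scaled to library size) in BAC 1, 0 in BAC 2 and 60.1 in BAC 3, and at 2.79, 344 and 51.6 CPM in CON. BAC 2 was thus a brain library in which this defining cerebellar marker had 0 counts, which allows up to 3 counts as far as counting error goes.

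The caudal hindbrain and spinal cord markers split the BAC group as well. Their mean deviation was 3.94 in BAC 1 and 4.02 in BAC 3, but -1.94 in BAC 2, -1.88, -1.42 and -1.73 in CON, and 3.05, -1.99 and -2.04 in DNP. Their summed level was 668.7, 37.3 and 625.5 CPM in BAC and 40.5 to 65.4 CPM in CON, with 16 of 24 markers at 0 counts in BAC 2 and 14 to 16 in each CON library. Midbrain and monoamine markers deviated by 0.65, -1.34 and 3.10 in BAC, and striatal markers by -1.13, 1.75 and -0.91. BAC 2 was the BAC library closest to CON in hindbrain markers, and for this reason values of BAC 2 alone against CON were computed as well. A second set of values comes from a fit with the cerebellar and caudal hindbrain levels of each library as covariates. Both are given where they differ by over 1.5 times from the value of the 3 libraries. Neither was computed for Wnk2 and Rpl7, nor for the lists of inhibitory postsynaptic scaffold, chloride transport and NF-kB genes. The same holds for the lists of glucocorticoid, glycolysis, cholesterol, meningeal, and midbrain and monoamine genes.

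**Figure D1:**
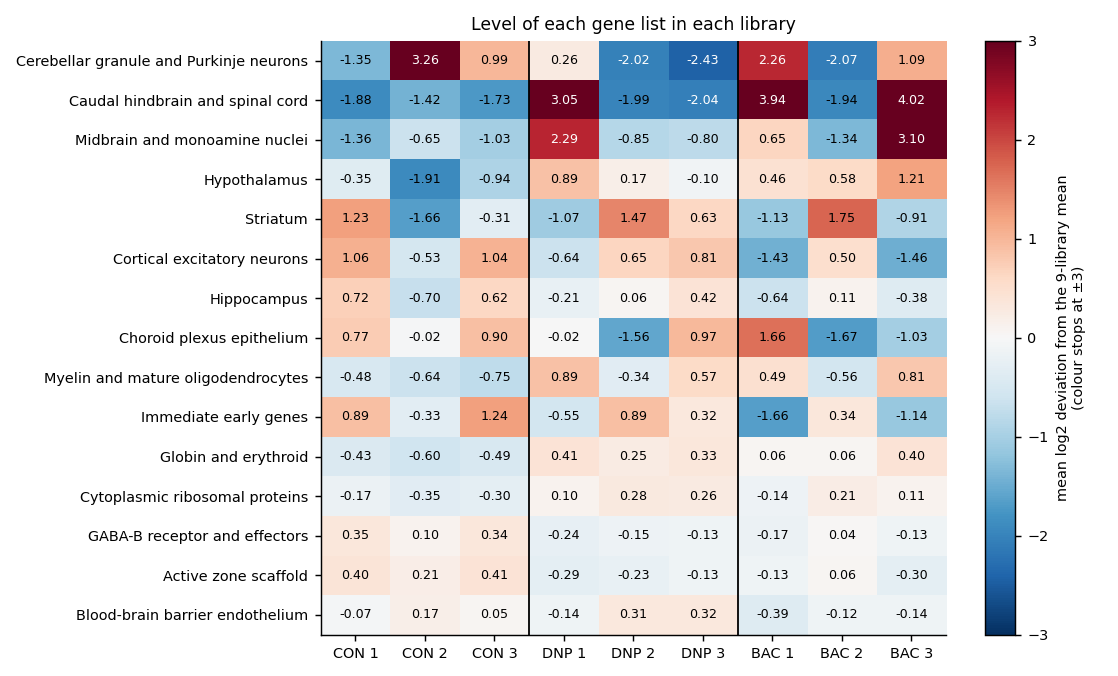
Mean log2 deviation of 15 gene lists (rows) from the mean of the 9 libraries (columns, 3 per group), with red above and blue below that mean. Caudal hindbrain markers were high in BAC 1 (3.94) and BAC 3 (4.02) and low in BAC 2 (-1.94). The globin and erythroid list was below the mean in the 3 CON libraries and above it in the other 6.

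Library totals were 13107382 to 16008129 counts, and the biological coefficient of variation was 36.5%. Mitochondrially encoded genes took 6.42% ± 0.705 of the counts in BAC and 4.96% ± 0.544 in CON (SD, n = 3 mice each), a difference of 1.47 percentage points (exact two-sided permutation p = 0.1, the smallest this design can give). The mean length of the gene behind a count, with lengths solved from the deposited FPKM, was 8547 bases in BAC and 9128 bases in CON. Xist reached at most 7 counts and Ddx3y at least 714 in every library, as the label of male mice requires.

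By edgeR's quasi-likelihood test over the 9 libraries, no gene differed between BAC and CON after adjustment at a threshold of 0.05 (0% of 18501 genes, smallest adjusted p = 0.622). At an unadjusted p under 0.05, 826 genes were higher in BAC (4.46%) and 610 were lower (3.3%). Every BAC library stood above every CON library for 1333 genes (7.21%) and below for 1153 genes (6.23%). Most genes named below were picked in part because BAC and CON did not overlap, so for them that trait is not a separate result. DESeq2, on the same libraries, called 64 genes higher (0.353% of the 18114 genes with an adjusted p) and 36 lower (0.199%) at an adjusted p under 0.05. The median log2 difference of all tested genes was -0.02, and all differences below are BAC minus CON in the edgeR fit, with standard errors (SE), unless named otherwise.

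The side to which the genes at an unadjusted p under 0.05 fell depended on the scaling. With TMM factors 57.5% of 1436 such genes were higher in BAC, with upper-quartile factors 69.6% of 1526, with library totals alone 74.5% of 1549, on log2(FPKM + 1) 71.3% of 1527 and on log2(FPKM + 0.1) 72.1% of 1551. The share was 42.4% of 1976 genes with the region covariates, 46.2% of 1757 without CON 2 and 46.5% of 2693 without BAC 2. At the same unadjusted threshold edgeR gave 2067 genes for DNP versus CON (smallest adjusted p = 0.294) and 438 for BAC versus DNP (smallest adjusted p = 0.998), with 0 genes after adjustment in either. BAC versus CON and DNP versus CON share the CON libraries, so their values are set side by side only.

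The DESeq2 calls varied with single libraries. Without BAC 3 DESeq2 called 21 genes and without CON 3 26 genes, against 177 without CON 2 and 579 without BAC 2. Of the 100 calls, 11 were made whichever library was left out, among them Hbb-bs, Hbb-bt, Hba-a1, Hba-a2, Cdh19, Styx, Baiap3 and Gal, and 29 were made in at most 1 of the 6 such runs.

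**Figure D2:**
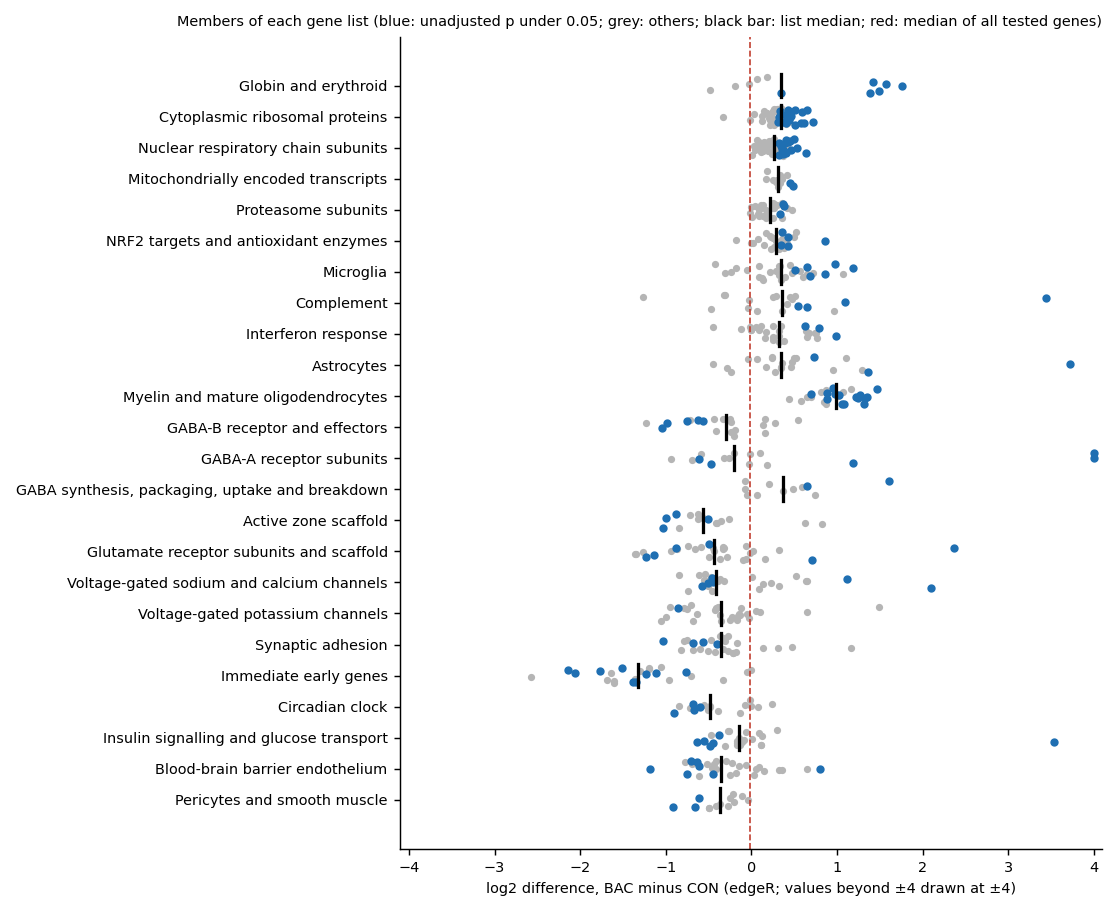
Log2 difference between BAC and CON (horizontal axis, edgeR) for each tested member of 24 gene lists, with blue points at an unadjusted p under 0.05, black bars at the list medians and a red line at the median of all tested genes (-0.02). Globin, ribosomal, respiratory chain and myelin lists lay to the right, and active zone, channel, immediate early and vessel lists to the left.

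Globin transcripts were higher in BAC brains than in CON brains, and the other erythroid genes went both ways. Of 11 tested globin and erythroid genes, 8 were higher and 3 lower, with 6 higher and none lower at an unadjusted p under 0.05. The same number, 6, had every BAC library above every CON library (list median 0.35, or 0.61 with the region covariates, against -0.02 for all genes). DESeq2 called 5 of them. The 4 adult globin genes encode the alpha and beta chains of haemoglobin, and their upstream sequences are shown because they share an erythroid motif. They come from RefSeq (GRCm38.p6), run 5′ to 3′ over the 250 bases before the RefSeq start, and carry in capitals the letters GATAAG, to which GATA factors bind. The Ensembl models of these 3 genes begin inside the windows.

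Hba-a2, chr11:32296242-32296491, + strand: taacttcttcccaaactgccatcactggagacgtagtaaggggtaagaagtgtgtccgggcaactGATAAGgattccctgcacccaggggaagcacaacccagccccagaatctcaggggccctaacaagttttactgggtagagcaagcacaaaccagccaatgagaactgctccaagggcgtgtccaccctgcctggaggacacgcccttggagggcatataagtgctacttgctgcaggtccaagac
Hbb-bs, chr7:103827929-103828178, - strand: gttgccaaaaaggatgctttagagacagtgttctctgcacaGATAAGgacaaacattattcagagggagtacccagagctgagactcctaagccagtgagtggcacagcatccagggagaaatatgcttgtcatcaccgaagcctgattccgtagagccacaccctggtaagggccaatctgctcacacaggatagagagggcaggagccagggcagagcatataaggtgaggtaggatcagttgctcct
Hbb-bt, chr7:103813924-103814173, - strand: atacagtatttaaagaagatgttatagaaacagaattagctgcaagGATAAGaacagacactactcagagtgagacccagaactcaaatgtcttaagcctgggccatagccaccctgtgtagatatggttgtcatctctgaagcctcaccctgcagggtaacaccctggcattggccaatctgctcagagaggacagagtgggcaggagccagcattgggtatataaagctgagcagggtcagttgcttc

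The motif GATAAG, or CTTATC on the other strand, occurred once in each of these windows and once in that of Hba-a1, which shares a run of 247 bases with Hba-a2. It lay 185 bases before the start in Hba-a2, 182 in Hba-a1, 209 in Hbb-bs and 204 in Hbb-bt, and it was absent from the same window of Alas2. Of all 32851 RefSeq promoters, 6.55% held it.

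Hbb-bs (chr7:103826534-103828096), an adult beta globin, had 93.0, 82.7 and 120.9 CPM in BAC 1, 2 and 3 and 39.1, 32.2 and 28.02 CPM in CON. The lowest BAC library was above the highest CON library, and the log2 difference was 1.58 ± 0.23 (DESeq2 adjusted p = 2.27e-05). In DNP the levels were 143.4, 90.7 and 111.7 CPM, within whose range 2 of the BAC libraries fell. The alpha globin Hba-a1 had 199, 233 and 351 CPM in BAC and 104, 92.7 and 104 CPM in CON, a log2 difference of 1.38 ± 0.22. Hba-a2 and Hbb-bt differed by 1.42 and 1.495. Reads of Hba-a1 and Hba-a2, and of Hbb-bs and Hbb-bt, can be split between near-identical copies, so the share of each copy is uncertain.

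Alas2, the erythroid enzyme that starts haem synthesis, was looked at after its values were seen. It had 5.74, 5.04 and 10.1 CPM in BAC and 2.85, 1.28 and 2.04 CPM in CON, with no overlap (log2 difference 1.76 ± 0.42, DESeq2 adjusted p = 0.0271). With the region covariates the difference was 0.61 for Alas2, 1.02 for Hbb-bs and 0.92 for Hbb-bt. In BAC 2 alone that of Hbb-bs was 1.31. Globins took 0.0564% of the counts in BAC, 0.0579% in DNP and 0.0197% in CON. How much blood each brain held was not measured, and its part in these differences was not tested.

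**Figure D3:**
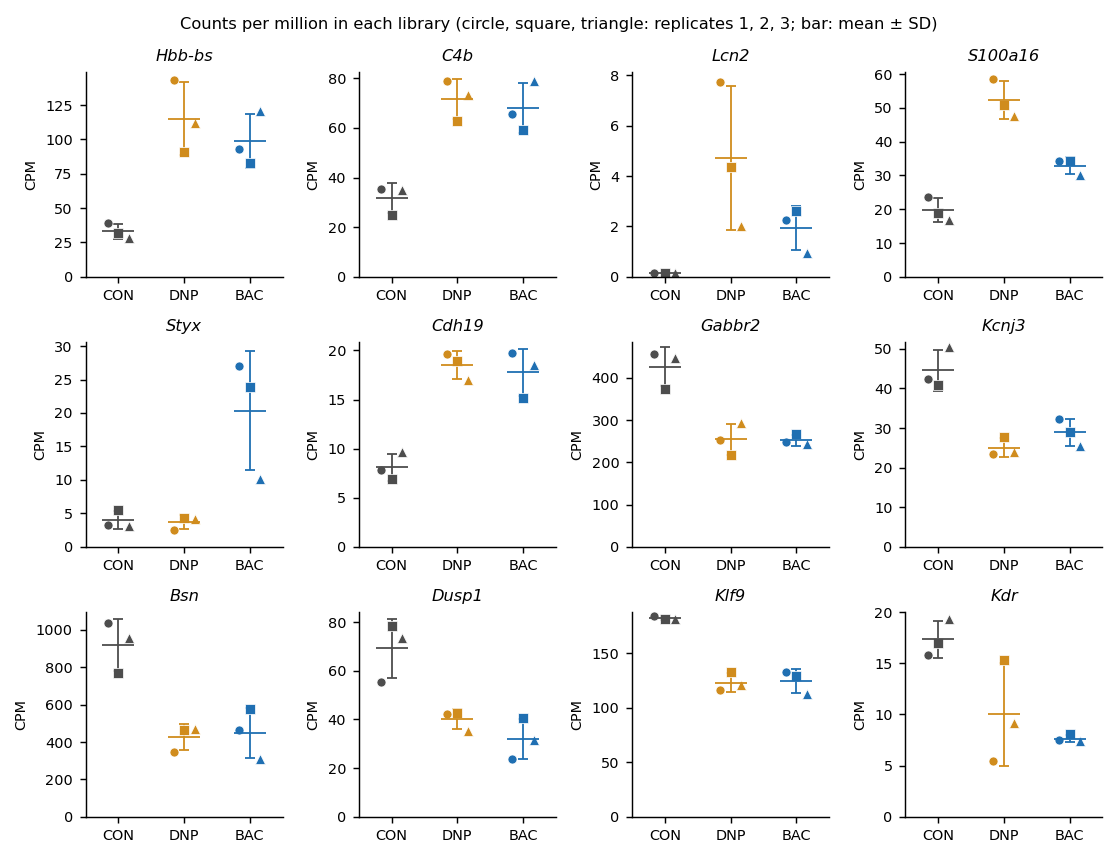
CPM (vertical axis, from 0) of 12 genes in each of the 9 libraries, with circles, squares and triangles for replicates 1, 2 and 3 and lines for the mean ± SD of each group. BAC and CON libraries did not overlap for any of the 12 genes, since lack of overlap was part of how genes were picked. In Styx the DNP libraries lay at the level of CON.

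Genes of the GABA-B receptor and its effectors were mostly lower in BAC than in CON. Of 20 tested members, 15 were lower and 5 higher, 5 were lower at an unadjusted p under 0.05 and none higher, and the list median was -0.29 (-0.40 in DNP versus CON and 0.09 in BAC versus DNP). DESeq2 called Gabbr2 and Kcnj3 lower. The list median was -0.22 in BAC 2 alone, and it was negative in all 23 alternatives.

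Gabbr2 (chr4:46662305-46991873), the subunit that couples the receptor to G proteins, had 249, 267 and 242 CPM in BAC against 457, 373 and 448 CPM in CON. The highest BAC library was below the lowest CON library, and the log2 difference was -0.75 ± 0.16 (DESeq2 adjusted p = 0.00258, called in 3 of 6 runs with a library left out). DNP libraries held 252, 218 and 293 CPM, and BAC minus DNP was -0.01 ± 0.16. Gabbr1, the subunit that binds baclofen, was at 576, 737 and 652 CPM in BAC and 813, 726 and 785 CPM in CON, groups that overlapped (-0.24 ± 0.15, and -0.08 in BAC 2 alone).

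The potassium channels opened by the receptor were lower too. Kcnj3 (chr2:55435970-55598145), which encodes GIRK1, had 32.2, 29.1 and 25.5 CPM in BAC and 42.4, 40.9 and 50.4 CPM in CON, with no overlap. Its log2 difference was -0.62 ± 0.15 (DESeq2 adjusted p = 0.0466, called in 1 of 6 runs with a library left out). Kcnj9, which encodes GIRK3, had 104, 126 and 76.3 CPM in BAC and 208, 205 and 221 CPM in CON (-1.05 ± 0.32), but the difference was -0.49 with the region covariates. Kcnj6, encoding GIRK2, had 10.6, 14.3 and 8.25 CPM in BAC and 25.4, 13.4 and 26.9 CPM in CON, where BAC 2 lay above CON 2 (-0.99 ± 0.30, and -0.62 in BAC 2 alone).

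Rgs7bp, an anchor of the RGS proteins that end the receptor's signal, differed by -0.57 ± 0.21 with no overlap, by -0.31 in BAC 2 alone and by -0.24 with the covariates. The auxiliary subunits encoded by Kctd8, Kctd12 and Kctd16 had differences of 0.15 ± 0.45, -0.24 ± 0.43 and -1.23 ± 0.90, and BAC and CON overlapped for each. The direction of Kctd8 turned without CON 1 (-0.08) or CON 3 (-0.09), and that of Kctd12 without CON 2 (0.21). In BAC 2 alone the 3 differences were -0.24, -0.63 and -0.07, and with the covariates 0.47, 0.69 and -1.88.

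GABA-A receptor subunits did not share a direction. Of 15 tested, 10 were lower and 5 higher, with 3 higher and 2 lower at an unadjusted p under 0.05 (list median -0.20, or 0.06 in BAC 2 alone and -0.31 with the covariates).

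Gabrb2, a beta subunit picked out after its values were seen, stood between the other groups. It had 125, 84.6 and 99.6 CPM in BAC, 146, 170 and 157 CPM in CON and 79.8, 51.6 and 44.4 CPM in DNP. BAC was below CON by 0.61 ± 0.24 on the log2 scale and above DNP by 0.82 ± 0.24 (edgeR adjusted p = 0.628 and 0.998), and the 3 groups did not overlap.

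The subunits Gabrg1, Gabre and Gabrq were higher in BAC. Gabrg1 had 40.5, 46.5 and 52.3 CPM in BAC, 23.6, 16.8 and 20.5 CPM in CON and 31.9, 30.1 and 9.33 CPM in DNP, a BAC minus CON difference of 1.19 ± 0.40 (0.68 with the covariates). Gabre and Gabrq, subunits of monoaminergic and hypothalamic neurons, were called by DESeq2 (adjusted p = 0.0149 and 0.0271). Gabrq had 13.4, 3.52 and 23.1 CPM in BAC, 18.5, 1.98 and 1.91 CPM in DNP and 1.19, 0 and 0.56 CPM in CON. It was highest in BAC 1, BAC 3 and DNP 1, the libraries with the most hindbrain and midbrain marker RNA, and its difference of 4.48 ± 1.33 was 2.55 in BAC 2 alone and 0.63 with the region covariates. That of Gabre, 4.66 ± 1.21, was 1.62 with the covariates, and its CON levels were near 0 (0.265, 0.0713 and 0.0702 CPM).

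Of 11 genes for GABA synthesis, packaging, uptake and breakdown, 8 were higher and 2 passed an unadjusted p under 0.05 (list median 0.37). Slc6a11, the GABA transporter GAT3 of astrocytes, had 376, 238 and 679 CPM in BAC and 173, 92.0 and 160 CPM in CON, with no overlap (1.60 ± 0.57). The difference was 0.74 in BAC 2 alone and -0.06 with the covariates. Abat, the enzyme that breaks GABA down, differed by 0.64 ± 0.27, by 0.28 in BAC 2 alone and by 0.27 with the covariates. Of 12 tested genes of the inhibitory postsynaptic scaffold, 11 were lower in BAC (median -0.30), none at an unadjusted p under 0.05. The level of this list was -0.35, 0.27 and -0.19 in BAC and 0.47, -0.21 and 0.25 in CON, so the groups overlapped. Among 10 chloride transporters and WNK kinases, Clcn2 (-0.47 ± 0.16) and Wnk2 (-0.38 ± 0.13) were lower at an unadjusted p under 0.05 and none was higher. Clcn2 differed by -0.27 in BAC 2 alone and -0.29 with the covariates.

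Genes of the presynaptic release site were mostly lower in BAC as well. Of 15 active zone scaffold genes, 13 were lower and 4 passed an unadjusted p under 0.05 (median -0.57, -0.43 in BAC 2 alone). Of 29 glutamate receptor and scaffold genes 24 were lower, 4 of them at an unadjusted p under 0.05 against 2 higher (median -0.43, -0.20 in BAC 2 alone). Of 26 synaptic adhesion genes 22 were lower, 4 at an unadjusted p under 0.05 (median -0.35, -0.22 in BAC 2 alone). Of 27 voltage-gated potassium channels 23 were lower, but only 1 passed an unadjusted p under 0.05 and 2 had no overlap, shares close to the 3.3% and 6.23% of all genes (median -0.35, -0.67 with the covariates). By the lengths solved from FPKM, genes of these lists are long (median 14583 bases in the active zone list). The active zone median was -0.47 once the trend with that length was removed.

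Bsn (chr9:108096022-108190384), which encodes the scaffold protein Bassoon, had 466, 576 and 307 CPM in BAC and 1038, 767 and 956 CPM in CON. Each BAC library was below each CON library, and the difference was -1.03 ± 0.25 (DESeq2 adjusted p = 0.0373, called in 2 of 6 runs with a library left out, and -0.69 in BAC 2 alone). Rims1, another active zone protein, had 126, 178 and 84.0 CPM in BAC and 309, 189 and 276 CPM in CON (-0.996 ± 0.31, and -0.54 in BAC 2 alone). Shank2, a scaffold of excitatory synapses, differed by -1.14 ± 0.32, and the calcium-activated potassium channel Kcnma1 by -0.86 ± 0.24 (-0.57 in BAC 2 alone). For Bsn and Shank2 the DNP minus CON differences were -1.11 and -0.98.

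Sodium channel genes went both ways. Of 26 sodium and calcium channel genes, 16 were lower and 10 higher, 4 and 2 at an unadjusted p under 0.05 (median -0.42, but -0.04 in BAC 2 alone and -0.22 with the covariates). Scn8a, the main channel of the axon initial segment in adult neurons, had 377, 321 and 321 CPM in BAC and 532, 438 and 417 CPM in CON (-0.45 ± 0.15, -0.67 with the covariates), and the beta subunit Scn2b differed by -0.50 ± 0.16 (-0.23 with the covariates). In contrast, Scn9a, which encodes the channel Nav1.7 of pain-sensing and some hypothalamic neurons, had 14.2, 8.70 and 21.9 CPM in BAC and 4.18, 3.14 and 3.09 CPM in CON. The groups did not overlap (2.103 ± 0.46, DESeq2 adjusted p = 0.00797), and DNP had 14.8, 5.94 and 5.98 CPM. The difference was 1.31 in BAC 2 alone and 0.82 with the region covariates.

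Markers of astrocytes, microglia and complement were more often higher than lower in BAC. Of 29 microglial genes, 24 were higher and 6 passed an unadjusted p under 0.05 (median 0.35, 0.72 in BAC 2 alone and 0.15 with the covariates), but their summed level of 1171, 1770 and 1401 CPM in BAC overlapped that of 1313, 768.5 and 1149 CPM in CON. Of 22 astrocyte genes, 18 were higher (median 0.35, but -0.09 in BAC 2 alone and 0.17 with the covariates). Of 19 complement genes, 13 were higher and 4 passed (median 0.36, but -0.03 with the covariates). Among 34 genes of NF-kB and inflammatory signalling, 16 were higher and 18 lower (median -0.04).

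C4b (chr17:34728380-34743882), a complement component made by glia, had 65.8, 59.0 and 78.9 CPM in BAC and 35.4, 24.9 and 35.2 CPM in CON. No library overlapped, and the difference was 1.09 ± 0.19 (DESeq2 adjusted p = 0.000512, called in 5 of 6 runs with a library left out). DNP had 79.0, 62.9 and 73.1 CPM. The C4b difference was 0.88 in BAC 2 alone and 0.59 with the region covariates.

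Lcn2 (chr2:32384633-32388252), an iron-binding acute-phase protein of reactive astrocytes and neutrophils, had 2 counts in each CON library. BAC libraries held 31, 38 and 15 counts (2.25, 2.62 and 0.945 CPM) and DNP libraries 107, 64 and 31 counts. Relative to library totals the BAC level was 13.8 times that of CON (95% interval 6.06 to 38.5, counting error only), and DESeq2 called it (adjusted p = 0.00496). BAC minus DNP was -1.28 on the log2 scale (edgeR adjusted p = 0.998), and the lowest DNP library lay inside the BAC range.

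S100a16, a calcium-binding protein of astrocytes, lay between CON and DNP. It had 34.2, 34.4 and 30.0 CPM in BAC, 23.6, 18.8 and 16.8 CPM in CON and 58.5, 50.8 and 47.5 CPM in DNP, and no pair of groups overlapped. BAC minus CON was 0.74 ± 0.17 (DESeq2 adjusted p = 0.0391, called in 1 of 6 runs with a library left out) and BAC minus DNP was -0.67 (edgeR adjusted p = 0.998). Gfap, the intermediate filament of astrocytes, had 553, 178 and 588 CPM in BAC and 171, 171 and 172 CPM in CON. BAC 2, the BAC library closest to CON in hindbrain markers, was 0.05 above CON on the log2 scale. The 3 BAC libraries together differed from CON by 1.36 ± 0.48 (0.15 with the covariates).

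H2-Aa, a chain of class II major histocompatibility molecules and a member of the microglial list, had 3.41, 2.69 and 3.09 CPM in BAC and 1.06, 1.78 and 1.19 CPM in CON (1.18 ± 0.33). H2-Eb1, a second class II chain named after its values were seen, had 4.87, 4.70 and 4.22 CPM in BAC, 1.46, 2.28 and 2.32 CPM in CON and 2.54, 2.80 and 2.17 CPM in DNP (1.18 ± 0.26, DESeq2 adjusted p = 0.0271, called in 0 of 6 runs with a library left out). Ifitm3, an interferon-induced membrane protein, had 12.9, 10.2 and 11.6 CPM in BAC and 6.10, 8.13 and 5.83 CPM in CON (0.79 ± 0.19, DESeq2 adjusted p = 0.0455). Of 27 interferon-response genes, 22 were higher in BAC and 3 passed an unadjusted p under 0.05 (median 0.32, but 0.07 in BAC 2 alone). The level of this list was 0.26, -0.21 and 0.27 in BAC and -0.47, 0.14 and -0.32 in CON, so that BAC 2 lay below CON 2.

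Genes for protein synthesis and respiration were slightly but widely higher in BAC. Of 59 cytoplasmic ribosomal protein genes, 57 were higher and 21 passed an unadjusted p under 0.05 (median 0.35, lowest alternative 0.27). The level of this list was -0.144, 0.212 and 0.108 in BAC 1, 2 and 3 and -0.175, -0.349 and -0.302 in CON, so BAC 1 lay close to CON 1. All 59 nuclear genes for respiratory chain subunits were higher, 16 at an unadjusted p under 0.05 (median 0.27), as were the 13 mitochondrially encoded transcripts (2 at an unadjusted p under 0.05, median 0.31, 0.51 in BAC 2 alone) and 29 of 30 proteasome subunits (median 0.22). DNP versus CON had medians of 0.49, 0.43, 0.40 and 0.29 for these lists. The proteasome median was 0.07 in BAC 2 alone and -0.02 with the region covariates, with which the respiratory chain median was 0.16.

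Rps20, a protein of the small ribosomal subunit, had 55.6, 87.8 and 67.5 CPM in BAC and 48.2, 38.9 and 41.4 CPM in CON (0.71 ± 0.20). Rpl7, of the large subunit, had 188, 187 and 214 CPM in BAC and 142, 145 and 138 CPM in CON and was the ribosomal gene that DESeq2 called (0.47 ± 0.12, adjusted p = 0.00458). Ribosomal protein genes have many processed pseudogenes, so their reads can be split. Ndufa2, a complex I subunit, had 51.7, 63.7 and 67.8 CPM in BAC and 40.7, 43.0 and 45.7 CPM in CON (0.50 ± 0.14). mt-Co3, a mitochondrial gene for complex IV, differed by 0.45 ± 0.17. Of 23 NRF2 targets and antioxidant enzymes, 21 were higher and 5 passed, among them Sod1, superoxide dismutase (0.43 ± 0.16, and 0.15 with the covariates), and Gsta4, a glutathione transferase (0.86 ± 0.33, 0.41 in BAC 2 alone and 0.11 with the covariates). The median of this list, 0.29, was 0.16 in BAC 2 alone and 0.08 with the covariates.

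Gene length, as solved from the deposited FPKM, moved with these differences. In the shortest decile of genes (57 to 1259 bases) the median difference was 0.11, with 143 genes higher and 31 lower at an unadjusted p under 0.05, and in the longest decile it was -0.14, with 29 higher and 137 lower. DNP minus CON ran from 0.17 to -0.21 over the same deciles. With the length trend removed, the ribosomal median was 0.28 and the respiratory chain median 0.21. RNA integrity was not given in the sources used here, and its part in the trend was not tested.

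**Figure D4:**
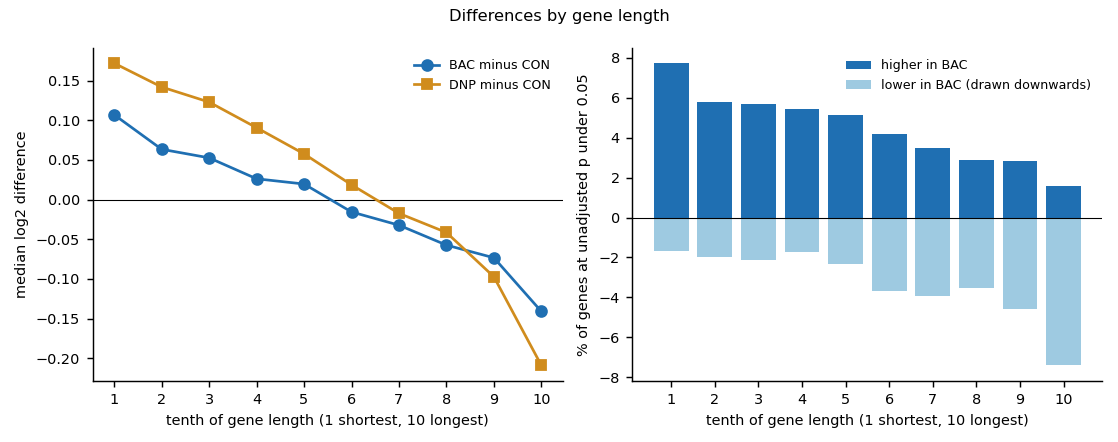
Left, the median log2 difference in each decile of gene length, as solved from FPKM (1 shortest, 10 longest), for BAC minus CON and DNP minus CON. Right, the percentage of genes at an unadjusted p under 0.05 in BAC versus CON, higher upwards and lower downwards: 7.73% higher and 1.67% lower in the shortest decile, 1.57% and 7.41% in the longest.

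Immediate early genes, which neurons switch on with activity, were all on the lower side. The 24 of 24 members had negative differences, 9 at an unadjusted p under 0.05, and the median was -1.33 (-0.45 in DNP versus CON, and -0.91 in BAC versus DNP). In 4 of them every BAC library lay below every CON library. Cortical markers moved with this list. The list level was -1.66, 0.34 and -1.14 in BAC 1, 2 and 3 and 0.89, -0.33 and 1.24 in CON, and cortical markers stood at -1.43, 0.50 and -1.46 in BAC and 1.06, -0.53 and 1.04 in CON. In BAC 2 alone the median was -0.53. Cortical markers themselves had a median of -0.92, or -0.18 in BAC 2 alone, and their part in the immediate early difference was not tested.

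Dusp1 and Fos are shown with the 250 bases before their RefSeq starts (GRCm38.p6), since both are activity-dependent and both windows held the cAMP response letters TGACGT or ACGTCA, given in capitals. The Ensembl model of Dusp1 extends beyond its window.

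Dusp1, chr17:26508473-26508722, - strand: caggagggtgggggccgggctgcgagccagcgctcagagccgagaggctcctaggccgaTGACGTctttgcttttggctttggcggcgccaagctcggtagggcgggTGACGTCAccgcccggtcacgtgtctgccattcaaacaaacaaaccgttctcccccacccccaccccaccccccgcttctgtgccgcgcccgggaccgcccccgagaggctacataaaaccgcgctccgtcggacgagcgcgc
Fos, chr12:85473640-85473889, + strand: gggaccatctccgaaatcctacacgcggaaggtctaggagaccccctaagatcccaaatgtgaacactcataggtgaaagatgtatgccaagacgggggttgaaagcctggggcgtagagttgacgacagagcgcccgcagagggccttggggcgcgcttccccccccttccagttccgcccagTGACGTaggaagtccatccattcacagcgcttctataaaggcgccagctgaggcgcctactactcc

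Dusp1 had 3 matches over both strands, 191, 143 and 141 bases before the start, of which the last 2 overlap as the palindrome TGACGTCA. Fos had 1 match, 66 bases before the start. Of the 32851 promoters, 6.47% held the shorter motif and 1.55% the palindrome.

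Dusp1 (chr17:26505590-26562128), a phosphatase that turns off MAP kinases, had 23.7, 40.5 and 31.7 CPM in BAC and 55.5, 78.5 and 73.5 CPM in CON. The groups did not overlap, and the difference was -1.11 ± 0.22 (DESeq2 adjusted p = 0.00588, called in 4 of 6 runs with a library left out). DNP had 42.3, 42.6 and 35.3 CPM. Fos, a transcription factor used as a sign of neuronal activity, had 6.32, 24.99 and 24.8 CPM in BAC, 33.3, 46.0 and 67.6 CPM in CON and 27.1, 44.9 and 19.8 CPM in DNP (-1.39 ± 0.53). Ier2, another early response gene, differed by -1.23 ± 0.33 and by -0.19 with the covariates.

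Clock genes were mostly lower in BAC. Of 17 members, 14 were lower and 4 passed an unadjusted p under 0.05, with every BAC library below every CON library in 6 (median -0.48, and -0.26 in BAC 2 alone or with the covariates). Nr1d1, the repressor REV-ERB alpha, had 132, 135 and 103 CPM in BAC, 235, 246 and 213 CPM in CON and 102, 168 and 173 CPM in DNP. No BAC library reached CON (-0.91 ± 0.22, DESeq2 adjusted p = 0.0382, called in 1 of 6 runs with a library left out), and the difference was -0.46 with the covariates. Arntl, whose product BMAL1 drives the clock, had 22.8, 23.9 and 18.7 CPM in BAC and 33.6, 35.0 and 36.0 CPM in CON (-0.68 ± 0.21, and -0.27 with the covariates). The hour at which each brain was taken was not given in the sources used here, and its part was not tested.

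Glucocorticoid-responsive genes went both ways: of 23, 14 were higher and 9 lower, 5 and 3 at an unadjusted p under 0.05 (median 0.20). Klf9 (chr19:23141226-23168134), a transcription factor induced by glucocorticoids, had 133, 129 and 112 CPM in BAC and 184, 181 and 181 CPM in CON. It differed by -0.55 ± 0.13 with no overlap (DESeq2 adjusted p = 0.0032, called in 3 of 6 runs with a library left out), and DNP had 116, 133 and 121 CPM. Mt1, a metallothionein, went the other way with 212, 191 and 228 CPM in BAC and 108, 154 and 140 CPM in CON (0.65 ± 0.18).

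Vessel genes were lower in BAC than in both other groups by their medians. Of 28 endothelial genes of the blood-brain barrier, 20 were lower in BAC than in CON, 6 at an unadjusted p under 0.05, with 11 below CON in every library (median -0.35). The same list had a median of 0.08 in DNP versus CON and -0.40 in BAC versus DNP. All 13 pericyte and smooth muscle genes were lower, 3 at an unadjusted p under 0.05 (median -0.37). With the region covariates the medians were -0.01 and 0.03, and in BAC 2 alone -0.19 and -0.28.

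Kdr (chr5:75932827-75978458), the main receptor for VEGF, had 7.48, 8.08 and 7.37 CPM in BAC and 15.8, 17.0 and 19.3 CPM in CON. The 3 BAC libraries lay close together and below every CON library (-1.18 ± 0.33, -0.57 with the covariates), whereas DNP spread over 5.43, 15.4 and 9.20 CPM. Flt1, the second VEGF receptor, had 41.9, 51.5 and 58.1 CPM in BAC, 73.2, 90.0 and 83.6 CPM in CON and 56.6, 86.7 and 79.4 CPM in DNP (-0.70 ± 0.20, -0.37 with the covariates). The pericyte gene Rgs5 had 52.4, 54.1 and 65.3 CPM in BAC and 79.0, 95.3 and 87.9 CPM in CON (-0.61 ± 0.19, -0.32 with the covariates), and the smooth muscle myosin Myh11 differed by -0.65 ± 0.24 (-0.13 with the covariates). Not all vessel genes were lower, since Ly6a, a surface protein of endothelium, had 19.5, 24.2 and 20.7 CPM in BAC and 7.76, 16.3 and 12.7 CPM in CON (0.81 ± 0.25, 1.54 with the covariates).

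Genes of insulin signalling and glucose transport differed little as a list. Of 25, 18 were lower and 7 higher, 5 and 1 at an unadjusted p under 0.05 (median -0.15, -0.06 with the covariates). Igfbp5, which binds insulin-like growth factors, had 156, 138 and 150 CPM in BAC and 183, 220 and 201 CPM in CON (-0.44 ± 0.14). Igf1r, the receptor for these factors, differed by -0.48 ± 0.16, and the kinase Akt2, which acts below the insulin receptor, by -0.56 ± 0.18. With the region covariates the differences were -0.21 for Igf1r and -0.08 for Akt2. The adaptor Irs4 had a positive difference of 3.54 ± 1.15, which was 1.77 in BAC 2 alone and -0.23 with the covariates. Glycolysis (16 genes) and cholesterol synthesis (20 genes) had medians of 0.05 and 0.07, with 1 and 0 members at an unadjusted p under 0.05 in edgeR and 0 called by DESeq2.

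Hypothalamic genes were higher in BAC. Of 17 tested hypothalamic markers, 15 were higher and 2 lower, with 11 higher and none lower at an unadjusted p under 0.05. The median was 1.98 (1.26 in BAC 2 alone, 0.27 with the covariates). Their summed level was 363.6, 438.8 and 743.7 CPM in BAC, 223.2, 125.1 and 165.5 CPM in CON and 498.4, 347.3 and 208.4 CPM in DNP. Each BAC library, BAC 2 included, was above each CON library in this sum, and the part of regional makeup in the single genes was not tested.

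Avp, the gene for vasopressin, had 9.01, 11.5 and 1.26 CPM in BAC, 1.13, 0.356 and 0.421 CPM in CON and 2.54, 1.02 and 1.58 CPM in DNP. BAC 1 and BAC 2 were well above the rest and BAC 3 was close to the highest CON library (3.48 ± 0.83, DESeq2 adjusted p = 0.00762). Gal, the gene for galanin, had 119, 10 and 116 counts in BAC and 0, 0 and 1 in CON, a ratio of 241 (95% interval 42.8 to 9542, counting error only). Calcr, the calcitonin and amylin receptor, had 24, 24 and 81 counts in BAC and 3, 0 and 0 in CON (ratio 42.2, interval 14.1 to 208). Glp1r, the receptor for glucagon-like peptide 1, had 34, 9 and 46 counts in BAC and 2, 0 and 0 in CON (ratio 43.7, interval 11.8 to 366). Baiap3, a regulator of dense-core vesicle trafficking in hypothalamic and other neurons, had 94.0, 81.1 and 194 CPM in BAC and 23.1, 10.3 and 11.6 CPM in CON (3.03 ± 0.55, and 1.45 with the covariates). For Gal the log2 difference of 7.45 was 4.45 in BAC 2 alone, and those of Calcr and Glp1r, both 5.21, were 2.25 and 1.91 with the covariates.

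Hindbrain, monoamine and myelin lists stood higher in BAC 1 and BAC 3 than in BAC 2. Of 23 tested caudal hindbrain markers, 16 were higher at an unadjusted p under 0.05 (median 8.74). The median was 0 in BAC 2 alone and 0.11 with the covariates. Both values follow from the setup, since BAC 2 was singled out by these markers and the level of this list was itself a covariate. Slc6a4, the serotonin transporter, had 19, 2 and 1168 counts in BAC, 2, 0 and 0 in CON and 450, 2 and 2 in DNP. For myelin, all 26 genes were higher in the 3 BAC libraries, 15 at an unadjusted p under 0.05 (median 0.99), while the median was -0.0005 in BAC 2 alone and 0.04 with the covariates. In 6 of the 26 myelin genes, and in 6 of 16 tested midbrain and monoamine markers, every BAC library was above every CON library. Mbp, myelin basic protein, had 1308, 686 and 1869 CPM in BAC and 623, 527 and 361 CPM in CON. Its difference of 1.35 ± 0.45 was 0.44 in BAC 2 alone and 0.22 with the covariates.

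**Figure D5:**
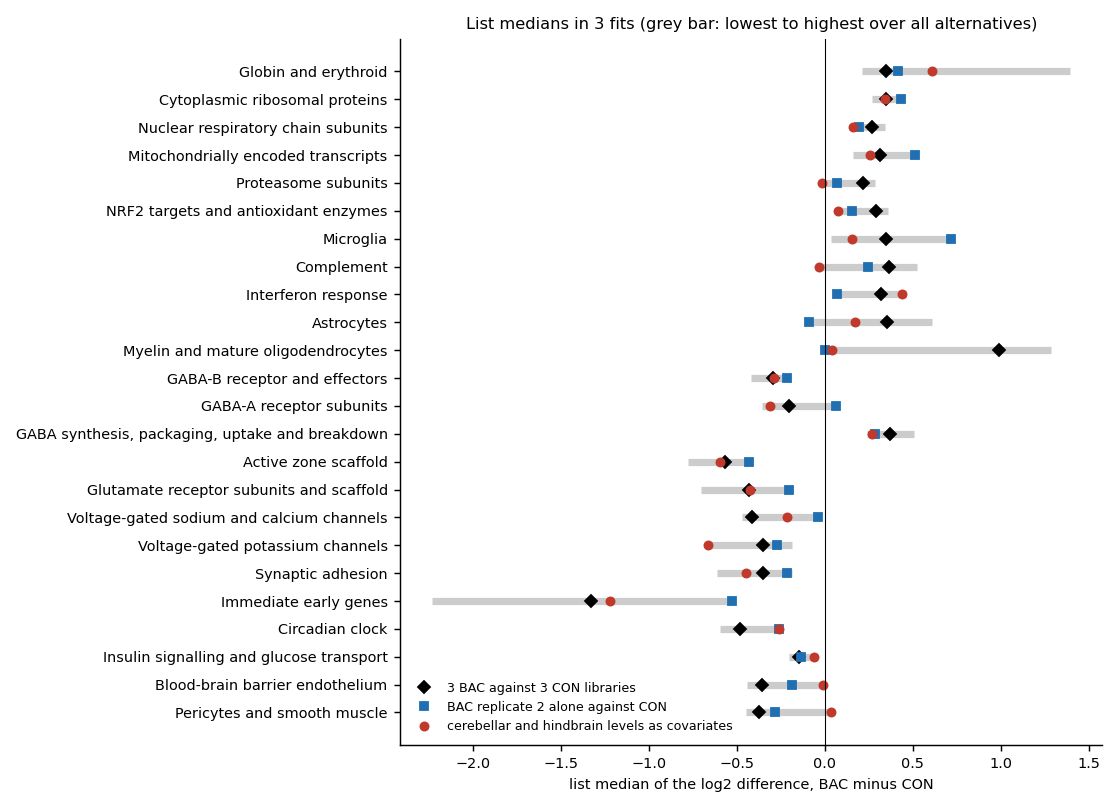
Median log2 difference of 24 gene lists (horizontal axis) with all 3 BAC libraries (black diamonds), with BAC 2 alone (blue squares) and with cerebellar and hindbrain levels as covariates (red circles), and grey bars from the lowest to the highest of all alternatives. The myelin median was 0.99, -0.0005 and 0.04 in the 3 fits, whereas the ribosomal median was 0.35, 0.43 and 0.34.

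In some genes BAC stood apart from CON and DNP alike. Over all 18501 genes, every BAC library stood above every DNP library for 626 and below for 630 (6.79% together). No gene differed between BAC and DNP after adjustment in edgeR (smallest adjusted p = 0.998). The genes from Styx to Fermt1 were grouped by standing apart, so that trait is not a separate result. Styx (chr14:45351093-45422820), a pseudophosphatase, had 27.0, 23.8 and 10.2 CPM in BAC, 3.25, 5.49 and 3.16 CPM in CON and 2.46, 4.37 and 4.14 CPM in DNP. Every BAC library was above the 6 others (BAC minus CON 2.36 ± 0.42, DESeq2 adjusted p = 0.000177, and BAC minus DNP 2.47 with an edgeR adjusted p of 0.998). DESeq2 called Styx against CON whichever library was left out.

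Bloc1s6, a subunit of a complex for lysosome-related organelles, had 9.52, 9.60 and 12.2 CPM in BAC, 14.8, 18.8 and 23.0 CPM in CON and 25.6, 25.3 and 26.1 CPM in DNP. It was lowest in BAC (-0.85 ± 0.19 against CON and -1.30 against DNP). Ube2a (chrX:36873900-36884222), a ubiquitin-conjugating enzyme, had 11.7, 12.7 and 16.9 CPM in BAC, 27.3, 21.9 and 25.6 CPM in CON and 23.8, 34.5 and 29.8 CPM in DNP (-0.86 ± 0.20 against CON and -1.09 against DNP). DESeq2 called them lower than CON (adjusted p = 0.0271 and 0.044), in 1 and 2 of the 6 runs with a library left out.

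Slc16a7, the monocarboxylate transporter MCT2 of neurons, which takes up lactate and ketone bodies, had 5.01, 6.35 and 6.55 CPM in BAC. CON libraries held 52.7, 21.5 and 13.8 CPM and DNP libraries 10.6, 34.2 and 33.6 CPM of Slc16a7, all above BAC. The difference was -2.29 ± 0.58 against CON (DESeq2 adjusted p = 0.0185) and -2.13 against DNP. Mpzl2, an adhesion protein, had 3.12, 2.42 and 2.46 CPM in BAC, 1.39, 0.927 and 1.12 CPM in CON and 0.145, 0.205 and 0 CPM in DNP. BAC minus CON was 1.21 ± 0.49 and BAC minus DNP 4.43 (edgeR adjusted p = 0.998). Mpzl2 belongs to the list of meninges and perivascular fibroblasts, whose median was 0.09 against CON and 0.80 against DNP, and whose summed level was 958.8, 1147 and 1048 CPM in BAC, 839.3, 837.3 and 955.8 CPM in CON and 869.9, 701.5 and 530.2 CPM in DNP.

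Fermt1, which encodes kindlin-1, an integrin partner of epithelia, had 0, 2 and 0 counts in BAC, 22, 23 and 72 in CON and 48, 4 and 14 in DNP. CON exceeded BAC by a ratio of 59.6 (95% interval 16.1 to 498, counting error only).

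Of the remaining genes, Cdh19, a cadherin of glial precursors and Schwann cells, had 19.8, 15.1 and 18.5 CPM in BAC and 7.83, 6.91 and 9.62 CPM in CON (1.13 ± 0.19, DESeq2 adjusted p = 0.000122). DNP had 19.6, 19.0 and 16.9 CPM, and DESeq2 called the gene against CON whichever library was left out. Among lower genes, Spred2, an inhibitor of the Ras and MAP kinase pathway, had 77.5, 83.1 and 79.2 CPM in BAC and 121, 151 and 128 CPM in CON (-0.74 ± 0.14, DESeq2 adjusted p = 0.000497, and -0.47 with the covariates). Nuak1, a kinase of axon branching, had 81.3, 58.6 and 69.7 CPM in BAC and 122, 130 and 130 CPM in CON (-0.87 ± 0.16).

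Further genes that DESeq2 called lower were Ncoa6, a nuclear receptor coactivator (-0.84), Ppm1l, a phosphatase (-0.66), the transcription factors Pou2f2 (-1.38) and Bhlhe22 (-0.95), Trib1, a pseudokinase (-0.95), Plxna1, a semaphorin receptor (-0.59), Spata2, a partner of the deubiquitinase CYLD (-0.64), and Cbfa2t3, a corepressor (-1.24). In each of these 8 genes every BAC library was below every CON library, as the rule by which they were picked required. With a library left out, DESeq2 called Ncoa6, Ppm1l and Pou2f2 in 4 of 6 runs and Cbfa2t3 in 2 of 6. It called Bhlhe22, Trib1, Plxna1 and Spata2 in 1 of 6. With the region covariates the difference was -0.34 for Cbfa2t3, -0.28 for Spata2 and -0.60 for Trib1, and that of Pou2f2 was -0.91 in BAC 2 alone. Higher genes called by DESeq2 included the calcium-binding S100a1 (0.71), Rpl22l1, a ribosomal protein paralog (0.66), Ap1s2, a clathrin adaptor subunit (1.21, and 0.60 with the covariates), and Mgp, an inhibitor of calcification (0.82). Each of them was called in 2 of 6 runs with a library left out.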

How the data were processed

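Brains of 3 CON, 3 DNP and 3 BAC mice were sequenced as paired-end poly(A) libraries with reads of 150 bases. The deposited counts per gene and the deposited FPKM were made by the authors on GRCm38. The submitters' processing notes list FastQC 0.11.9, fastp, Bowtie2 2.3.4.1, HISAT2 2.1.0 and StringTie 1.3.3b. The gene lengths used here were solved from the counts, library totals and FPKM, which leave no other factor. They are the lengths by which FPKM divides, and some exceed the span of the annotated gene. For Lcn2 the solved length was 4867 bases, longer than its span at chr2:32384633-32388252. How reads shared by several genes were counted is not given in the sources used here.

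A model with group as its factor was fitted to the counts of all 9 libraries in R 4.3.3 by edgeR 4.0.16 (glmQLFit in its legacy mode, glmQLFTest, TMM factors, filterByExpr with a minimum count of 10), with Benjamini-Hochberg adjustment over the 18501 genes kept, which hold 99.82% of the counts. DESeq2 1.42.0 (the method of the study) was the alternative test, and limma 3.58.1 served for FPKM and voom. A log2 difference from edgeR uses its prior count. For this reason Gal, Lcn2, Calcr, Glp1r and Fermt1, with at most 3 counts in each CON or each BAC library, are given as counts with exact 95% intervals. Other low genes have no interval, such as Gabre and Gabrq against CON and Mpzl2 against DNP, and their differences depend on the prior count. CPM values are scaled by library totals and TMM factors. Coordinates were found for 18454 of the tested genes in the GRCm38 annotation. RefSeq upstream sequences were found for 84 of 117 genes whose alternatives were computed. The code was tested on simulated counts.

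The 55 gene lists hold 1133 genes, of which 1077 were tested. Lists, members and tests were chosen with earlier results of these data known, so no list is independent evidence. Lists are described by counts and medians without a set test. Genes named have a mean of at least 1 CPM over the BAC and CON libraries and no overlap between them. They are the 15 higher and 15 lower with the smallest edgeR p, the 10 higher and 10 lower DESeq2 calls with the largest differences, up to 4 members per list at an unadjusted p under 0.05 (otherwise up to 2 with the smallest p), and the GABA-B receptor, KCTD and channel genes in any case. An item covered by these rules is not reported here. From these, examples were taken for the text. Gabrb2, Alas2, H2-Eb1, Cnpy1, B3galt1 and mt-Ts2 were named after their values were seen. Behaviour, qPCR, docking and human blood data were not analysed here.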

Additional observations from a re-analysis of the deposited data

How the results depend on the processing

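Of 117 genes, 111 kept their direction in all of up to 23 alternatives, and of 28 lists 21 did, with 10 of 2674 and 9 of 643 values on the other side. Most of the 117 genes were picked in part because BAC and CON did not overlap. That nearly fixes their direction when libraries are left out, so their count cannot serve as a test of stability. The number of genes at an adjusted p under 0.05, 0 in edgeR, was 100 in DESeq2 and 1 with the region covariates (Cnpy1, -4.66), and 0 to 1 with a library left out (B3galt1 without CON 2, mt-Ts2 without CON 3). The number at an unadjusted p under 0.05, 1436, was 5118 with voom and quality weights (smallest adjusted p = 0.0706), 648 in BAC 2 alone and 604 (without BAC 3) to 2693 (without BAC 2) with a library left out. Genes without overlap, 2486 with 3 against 3 libraries, were 3071 to 6519 with a library left out, where fewer libraries overlap less. DESeq2 calls ranged from 21 to 579. These DESeq2 runs, the current edgeR mode (0 and 1512 genes) and the removal of the length trend (0 and 1313) were chosen after seeing the data. The causes were not tested.

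List medians turned to 0.0393 for GABA-A subunits on log2(FPKM + 1), 0.0409 on log2(FPKM + 0.1) and 0.0612 in BAC 2 alone. In BAC 2 alone they also turned to -0.0926 for astrocytes, -0.000459 for myelin and 0 for caudal hindbrain, the markers by which BAC 2 was singled out. With the covariates they turned to -0.0170 for proteasome, -0.0347 for complement and 0.0335 for pericytes. Kctd8 was -0.24 in BAC 2 alone and -0.0940 to 0.795 with a library left out, and Kctd12 0.0771 with voom, 0.69 with the covariates and -0.584 to 0.211 with a library left out. With the covariates Slc6a11 was -0.0555, Irs4 -0.23, Slc6a4 -2.81 and Rbfox3, a neuronal marker, 0.13 (-0.65 without them).

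Deviations of same-numbered CON and BAC libraries correlated by -0.579, -0.577 and -0.138, and those of unlike number by -0.341 to 0.614. Deviations were taken from the means of groups of 3, which ties these values together. They therefore cannot show whether replicate numbers pair the mice. With a replicate block edgeR called 0 genes at an adjusted p under 0.05 and 1203 (704 higher, 499 lower) at an unadjusted p under 0.05. The mitochondrial difference was 1.06 to 1.71 percentage points with a library left out. Whether deeper sequencing would change these calls was not tested.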
